A study of Bos taurus with 6 samples.

Results

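The matrix metalloproteinases (MMPs) and their tissue inhibitors (TIMPs) were examined in bovine embryonic stem cells. The set was fixed by name and held 9 genes, MMP2, MMP9, MMP11, MMP14, MMP15, TIMP1, TIMP2, TIMP3 and TIMP4, of which 8 were found by Entrez identifier among the 19163 genes of the count table. TIMP1 was not analysed here. Of the 8 genes, 7 passed the filter on low counts and were tested, and TIMP4 was too low for the test.

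MMPs are zinc-dependent enzymes that cut the proteins of the extracellular matrix, and they are made as inactive precursors. Some are secreted, and others, the membrane-type MMPs, are anchored in the plasma membrane. TIMPs bind the active site of MMPs and block it, but TIMP2 also bridges the precursor of MMP2 to MMP14 at the cell surface, where MMP2 is then activated. For these reasons a transcript level says nothing by itself about enzyme activity, and the values below are levels of mRNA only.

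The cells were F7, a single line of Holstein Friesian embryonic stem cells derived from in vitro fertilized embryos and grown in a medium with FGF and the Wnt inhibitor IWR1. MC-F7 grew on mouse embryonic fibroblasts (MEFs) treated with mitomycin C, which are alive but do not divide, and MT-F7 grew on MEFs fixed with methanol, which are dead. In the labels the MC group is called 1M, and both groups are given 15 passages. The medium was changed every day for MC-F7 and every other day for MT-F7, so the schedule of feeding cannot be told apart from the feeder. Cells were plated briefly on gelatin before RNA was taken from those that floated, a step meant to remove attached feeder cells. The study reports a lower rate of alignment to the bovine genome in MC-F7 than in MT-F7. It proposes that fixed feeders left less feeder contamination. There were 3 libraries in each group, and no source used here says whether they came from separate cultures. The study's statistics speak of technical replicates, so the p values measure only the spread between these libraries, which may be technical.

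Counts per library ran from 21958386 to 24933430. Detection was set at 3 counts per library, or 0.12 to 0.137 counts per 1000000 (CPM), a limit that covers counting error only. Mitochondrial genes took 16.3% to 28.3% of the counts, and replicate 3 had the most in each group. Of the 13001 genes tested by edgeR's quasi-likelihood test, 23.2% had a Benjamini-Hochberg adjusted p under 0.05 (called below), 11.9% as higher and 11.3% as lower in MT-F7 (1553 and 1463 genes). DESeq2 on the same counts called 1739 higher and 1651 lower. Limma on the second table with 0.1 added, where the values, the scaling and the 16900 genes tested all differed, called 1691 higher and 883 lower. The median log2 fold change over all tested genes was -0.003. Of 9 pluripotent cell markers 8 were called (88.9%), all lower in MT-F7, but POU5F1, the gene for OCT4, was still at 522 ± 35.6 CPM in MT-F7 against 1196 ± 330 CPM in MC-F7 (SD, n = 3).

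Transcripts of the gelatinase MMP2, the gelatinase MMP9 and the inhibitor TIMP2 were higher in MT-F7, and no member was called lower, by edgeR or DESeq2 or at an unadjusted p under 0.05. These 3 were 42.9% of the 7 tested members, beside 23.2% of all tested genes called either way and 11.9% called higher. The members were chosen with earlier results of these data known, and the study lists MMP9 among genes raised in MT-F7. The share is therefore not independent evidence of a direction. The median log2 fold change of the 7 was 0.37. In the same 3 genes the CPM of all MT-F7 libraries exceeded those of all MC-F7 libraries, as they did in 19.9% of all tested genes, while the reverse held in 20.1% and the groups stood apart either way in 40%. MMP11, MMP14, MMP15 and TIMP3 were not called, and their groups overlapped. The plot of CPM by library shows all 8 genes.

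**Figure D1:**
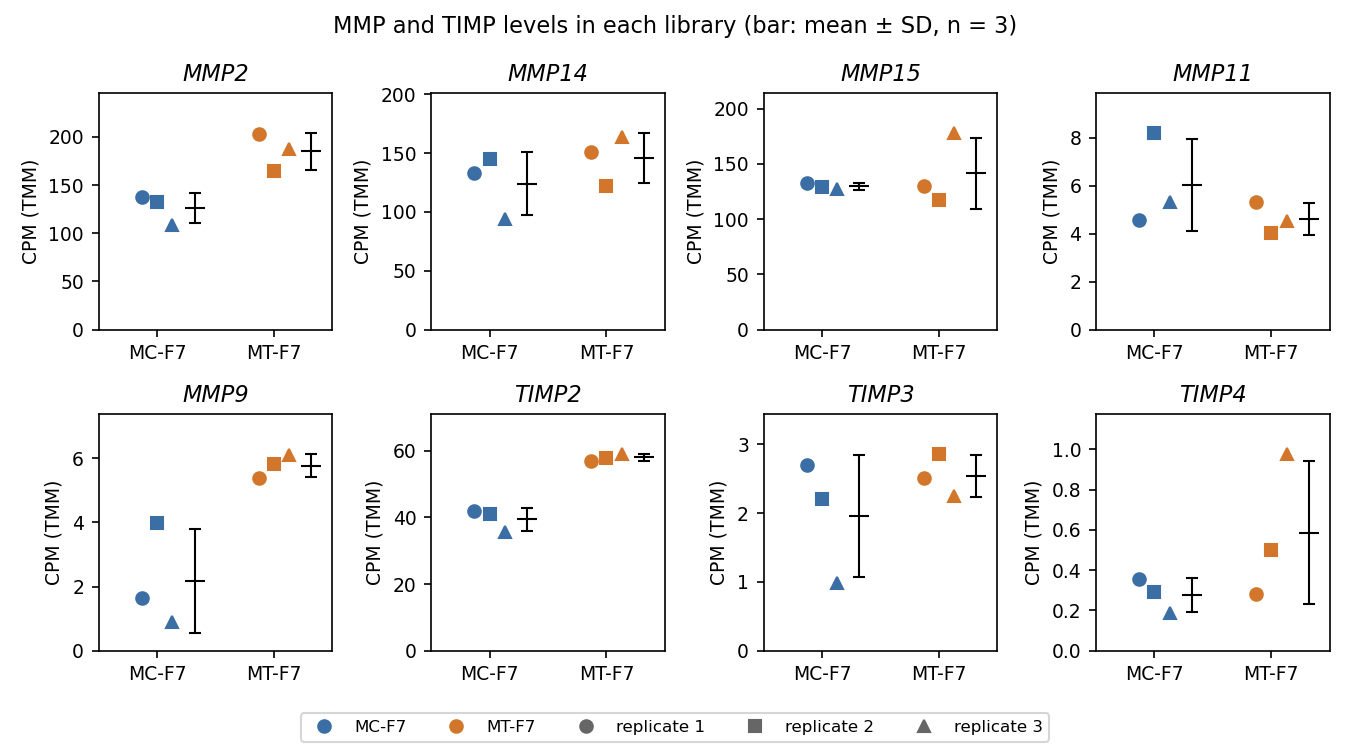
CPM after TMM scaling (vertical axes, each from 0) of the 8 members in the 3 MC-F7 libraries (blue) and the 3 MT-F7 libraries (orange), with the replicate number as the marker shape and a black bar for the mean ± SD. The groups stand apart in MMP2, MMP9 and TIMP2 and overlap in the other 5 genes.

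MMP2, also called gelatinase A, is secreted and cuts denatured collagen and collagen IV of basement membranes. Its level was 138, 132 and 109 CPM in MC-F7 replicates 1 to 3, and 203, 165 and 187 CPM in MT-F7 replicates 1 to 3. The lowest MT-F7 library was thus above the highest MC-F7 library. The mean rose from 126 ± 15.3 to 185 ± 19.2 CPM (SD, n = 3), 1.46-fold with a 95% interval of 1.16 to 1.85. The log2 fold change, with its standard error (SE), was 0.55 (SE 0.156, adjusted p = 0.022). The call was lost when any 1 of these libraries was left out, MC-F7 replicate 2 (log2 fold change 0.58, adjusted p = 0.078), MC-F7 replicate 3 (0.45, adjusted p = 0.060) or MT-F7 replicate 1 (0.47, adjusted p = 0.11).

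MMP9, or gelatinase B, has similar substrates and is best known from neutrophils and macrophages. It was far rarer, with 37, 96 and 19 counts in MC-F7 against 135, 151 and 144 in MT-F7, or 1.64, 3.98 and 0.889 CPM against 5.38, 5.83 and 6.11 CPM. The MC-F7 libraries were spread over a wide range, while the MT-F7 libraries lay close together above them. The mean rose from 2.17 ± 1.61 to 5.77 ± 0.371 CPM, a log2 fold change of 1.40 (SE 0.403, adjusted p = 0.024). The fold was 2.64 with a 95% interval of 1.44 to 4.83. Without MC-F7 replicate 2, the MC-F7 library nearest to MT-F7, the log2 fold change was 2.18 (adjusted p = 0.0013), and without MC-F7 replicate 1 it was 1.23 (adjusted p = 0.070). It also missed the threshold without MT-F7 replicate 1 (1.44, adjusted p = 0.052) and without MT-F7 replicate 2 (1.40, adjusted p = 0.051).

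Of 10 markers of leukocytes and macrophages, 7 had at most 12 counts in any library and were not tested, and 3 were tested (LAPTM5, SPI1 and CD68). Of these, 1 was called higher and 1 lower (66.7%, beside 23.2% of all tested genes). The summed level of all 10 was 7.52 to 9 CPM in MC-F7 and 9.15 to 10.5 CPM in MT-F7. PTPRC (CD45), the defining surface marker of leukocytes, had 1, 8 and 7 counts in MC-F7 against 2, 10 and 2 in MT-F7. ITGAM had 0, 0 and 0 and 0, 3 and 3 counts, and CD14 had 3, 5 and 0 and 0, 0 and 0. CD163 had 4, 0 and 2 counts in MC-F7 against 1, 0 and 3 in MT-F7. AIF1 had 2, 10 and 8 against 12, 5 and 4, and TYROBP 0, 2 and 0 against 2, 5 and 0. CSF1R had 0, 0 and 3 counts in MC-F7 against 8, 9 and 9 in MT-F7. Its MT-F7 libraries were all above its MC-F7 libraries, as in 19.9% of all tested genes, while the other untested markers overlapped. LAPTM5, a lysosomal protein of blood cells, rose from 2.79 ± 0.800 to 5.6 ± 0.294 CPM (adjusted p = 0.015), and its call was lost without MT-F7 replicate 1 (adjusted p = 0.058). SPI1, the transcription factor PU.1, went the other way, with 46, 45 and 24 counts in MC-F7 against 0, 0 and 2 in MT-F7, where all libraries were at or under 3 counts. CD68, a lysosomal protein of macrophages, was at 2.79 ± 0.942 and 3.18 ± 0.953 CPM (0.19, adjusted p = 0.72). The part of such cells in the level of MMP9 was not tested.

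MMP14 and MMP15 are the membrane-type enzymes MT1-MMP and MT2-MMP. MMP14, the activator of MMP2, was at 133, 145 and 93.8 CPM in MC-F7 against 151, 122 and 164 CPM in MT-F7. The 2 groups overlapped, since MT-F7 replicate 2 was below 2 of the MC-F7 libraries. Its log2 fold change was 0.23 (SE 0.186, adjusted p = 0.40), and the 95% interval of the fold was 0.889 to 1.55. This interval holds the 1.46-fold of MMP2, so these data do not show that MMP14 changed less.

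MMP15 was at 133, 129 and 127 CPM in MC-F7 against 130, 117 and 178 CPM in MT-F7. The MC-F7 libraries were almost level, and in MT-F7 replicate 3 alone was high. The log2 fold change was 0.13 (SE 0.170, adjusted p = 0.63), with a fold between 0.847 and 1.41, and without MT-F7 replicate 3 it was -0.08. MMP11, or stromelysin 3, is activated inside the cell by furin and is known from stroma that is being remodelled. It was at 4.56, 8.21 and 5.33 CPM in MC-F7 against 5.34, 4.02 and 4.54 CPM in MT-F7. MC-F7 replicate 2 was the highest library, and the other libraries overlapped. MMP11 was the only tested member with a fold change below 0 on the log2 scale, -0.38 (SE 0.259, adjusted p = 0.32).

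Among the inhibitors TIMP2 stood out. TIMP2 was at 42, 40.9 and 35.5 CPM in MC-F7 against 57, 58 and 59.1 CPM in MT-F7, and the MT-F7 libraries were nearly equal and all higher. The mean rose from 39.5 ± 3.45 to 58.1 ± 1.03 CPM (SD, n = 3), which is 1.47-fold with a 95% interval of 1.18 to 1.83. The log2 fold change was 0.56 (SE 0.145, adjusted p = 0.014). Its call was lost without MC-F7 replicate 2 (0.58, adjusted p = 0.062) and without MT-F7 replicate 1 (0.56, adjusted p = 0.053).

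TIMP3 binds to the matrix and also inhibits ADAM and ADAMTS proteases. Its counts were 61, 53 and 21 in MC-F7 against 63, 74 and 53 in MT-F7, with MC-F7 replicate 3 far below the rest. The levels were 1.96 ± 0.883 and 2.54 ± 0.305 CPM, and the log2 fold change was 0.37 (SE 0.360, adjusted p = 0.50). Its fold lay between 0.753 and 2.22, so a change of the size seen in TIMP2 could not be told from none at this depth. TIMP4, an inhibitor known from heart and other adult tissues, had 8, 7 and 4 counts in MC-F7 against 7, 13 and 23 in MT-F7, and the groups overlapped. In a fit of all 16223 genes with at least 1 count its log2 fold change was 1.06 (SE 0.696, adjusted p = 0.33).

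Levels of different genes can be compared only per length, for which the second deposited table was used. For each of the 8 members its values were proportional to the counts in all libraries. On this scale MMP2 was the highest of the 23 MMP and TIMP genes in both groups, at 8.06 ± 1.33 in MC-F7 and 12.8 ± 1.25 in MT-F7. MMP15 followed with 7.42 ± 0.513 and 8.82 ± 1.55, then MMP14 with 6.57 ± 1.76 and 8.34 ± 0.908, and TIMP2 with 5.19 ± 0.702 and 8.32 ± 0.321. In MC-F7 the ranges of MMP2, MMP15 and MMP14 overlapped, so their order was not set beyond the spread. In MT-F7 MMP2, with 11.9 to 14.3, was above MMP15, MMP14 and TIMP2, whose ranges overlapped each other. All other MMP and TIMP genes were below 2 on this scale in every library.

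**Figure D2:**
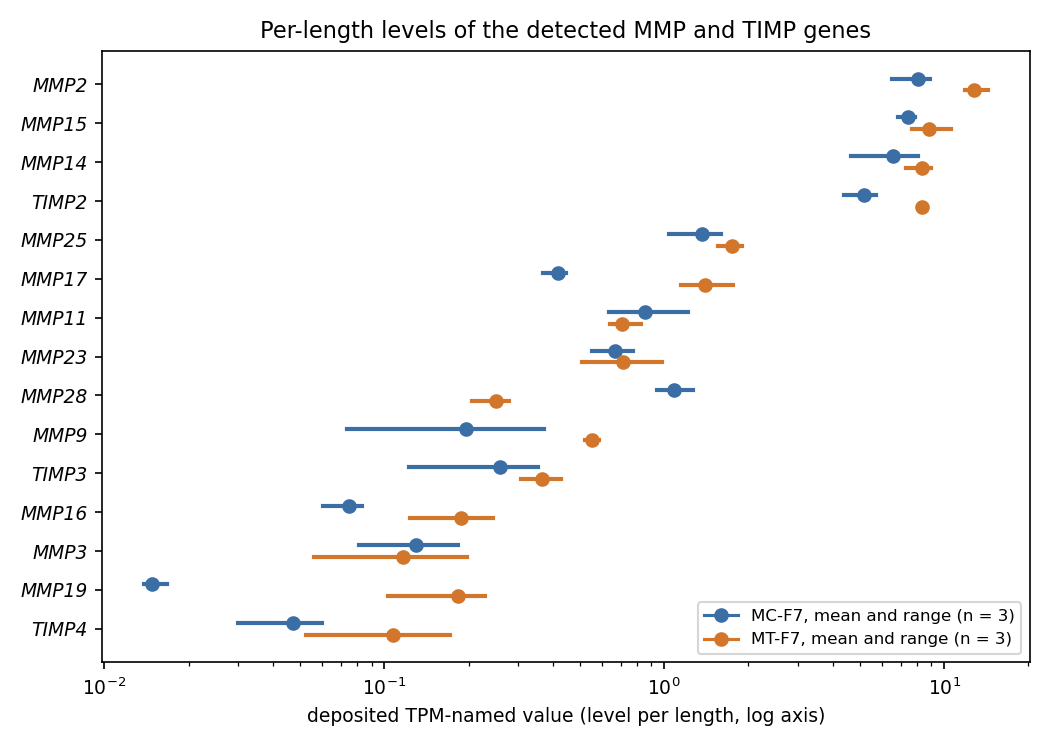
Per-length level (deposited values that the authors call TPM, logarithmic axis) of the 15 MMP and TIMP genes with a mean of at least 0.05 over all libraries, with the mean as a point and the range of 3 libraries as a line for MC-F7 (blue) and MT-F7 (orange). MMP2, MMP15, MMP14 and TIMP2 form the top of the order in both groups, and MMP28, MMP17 and MMP19 differ most between them.

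MMP2, MMP14 and MMP15 together made up 82.1% ± 2.97 of the summed MMP level in MC-F7 and 83.7% ± 0.690 in MT-F7. MMP2 alone took 30% ± 1.75 and 35.9% ± 3.39. Among the inhibitors measured, TIMP2 was 94.6% ± 1.89 of the summed level in MC-F7 and 94.6% ± 0.502 in MT-F7, with TIMP3 at 4.58% ± 1.71 and 4.15% ± 0.529. TIMP1 is outside these sums.

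Because a ratio within a library does not depend on scaling, 5 ratios of per-length levels were compared. MMP2 to TIMP2 was 1.59, 1.57 and 1.49 in MC-F7 against 1.73, 1.38 and 1.53 in MT-F7. The means, 1.55 ± 0.0544 and 1.55 ± 0.175, were alike, and the exact permutation p was 1. MMP14 to TIMP2 was 1.27, 1.42 and 1.06 in MC-F7 against 1.06, 0.842 and 1.11 in MT-F7, and these groups overlapped (exact permutation p = 0.3). MMP2 to MMP15 was 1.15, 1.14 and 0.953 in MC-F7 against 1.74, 1.56 and 1.16 in MT-F7, without overlap. The summed MMP level was 4.62, 5.07 and 4.98 times the summed TIMP level in MC-F7 and 4.27, 3.5 and 4.51 times in MT-F7, again without overlap and lower in MT-F7. For these last 2 ratios the exact two-sided p was 0.1, the smallest that 3 libraries against 3 can give, and it was 0.25 after Benjamini-Hochberg adjustment over the 5 ratios. MMP2 to MMP14 was 1.25 ± 0.150 and 1.55 ± 0.148 (exact permutation p = 0.2).

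**Figure D3:**
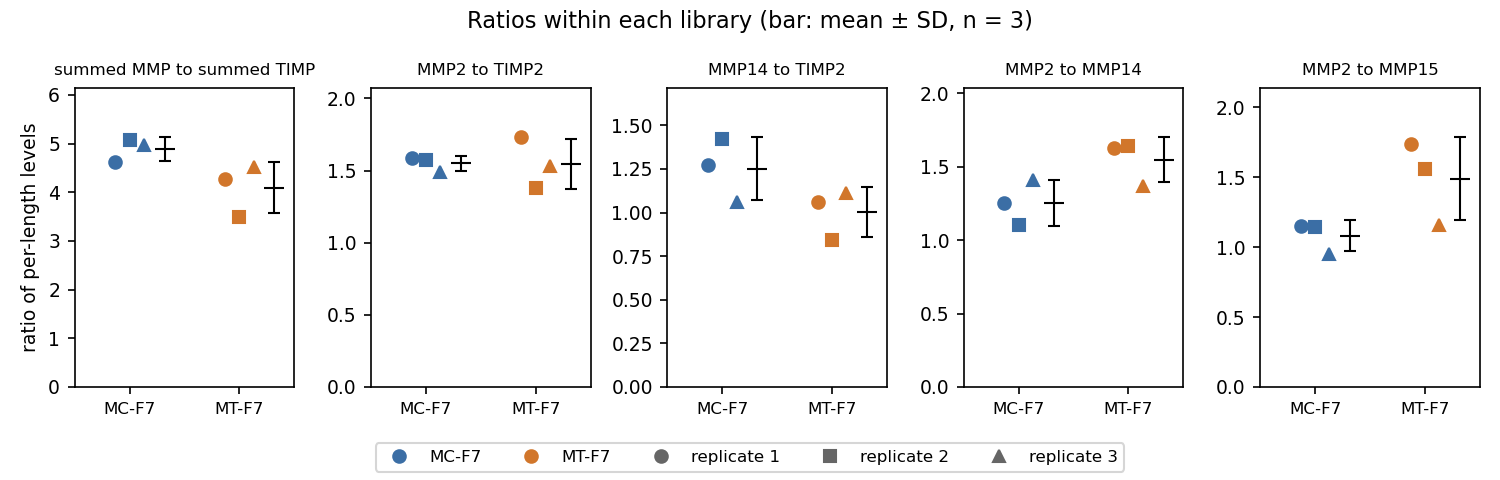
Ratios of per-length levels (vertical axes, each from 0) in each MC-F7 library (blue) and MT-F7 library (orange), with a black bar for the mean ± SD. MMP2 to TIMP2 has a mean of 1.55 in both groups, while MMP2 to MMP15 is higher and summed MMP to summed TIMP lower in every MT-F7 library.

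The count table held 15 other MMP genes, and 5 of them (MMP1, MMP7, MMP8, MMP13 and MMP27) had 0 counts in all 6 libraries, which allows up to 3 counts in each. MMP12, MMP20 and MMP24 had at most 4 counts in any library. Of the 7 that were tested, 3 were called higher and 1 lower (57.1%, beside 23.2% of all tested genes), with a median log2 fold change of 0.23.

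MMP19, a secreted enzyme that cuts basement membrane proteins, had 5, 6 and 5 counts in MC-F7 against 78, 37 and 82 in MT-F7. It rose from 0.235 ± 0.0138 to 2.67 ± 1.09 CPM, a log2 fold change of 3.48 (SE 0.481, adjusted p = 2.3e-04). MMP17, also known as MT4-MMP, is held in the membrane by a lipid anchor. Its counts were 117, 141 and 139 in MC-F7 against 366, 410 and 557 in MT-F7, and it rose from 5.84 ± 0.662 to 18 ± 4.91 CPM (log2 fold change 1.62, SE 0.219, adjusted p = 1.9e-04). MMP16, or MT3-MMP, can activate MMP2 like MMP14. It had 28, 29 and 21 counts in MC-F7 against 85, 68 and 43 in MT-F7, a log2 fold change of 1.19 (SE 0.342, adjusted p = 0.024), and its call was lost in 4 of the 6 fits that left out 1 library, with an adjusted p of up to 0.13 without MT-F7 replicate 1.

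MMP28, or epilysin, is a secreted enzyme of epithelia and was the only MMP gene called lower. It had 314, 397 and 295 counts in MC-F7 against 64, 83 and 87 in MT-F7, with no overlap. The level fell from 14.7 ± 1.51 to 3.15 ± 0.574 CPM, a log2 fold change of -2.22 (SE 0.210, adjusted p = 1.1e-05). MMP17, MMP19 and MMP28 were called in all 6 fits that left out 1 library. MMP25, MMP23 and MMP3 were not called, with log2 fold changes of 0.23, -0.02 and -0.28. Over members and other MMP genes together, 7 of 14 tested genes were called (50%, beside 23.2% of all tested genes), 6 higher and 1 lower.

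**Figure D4:**
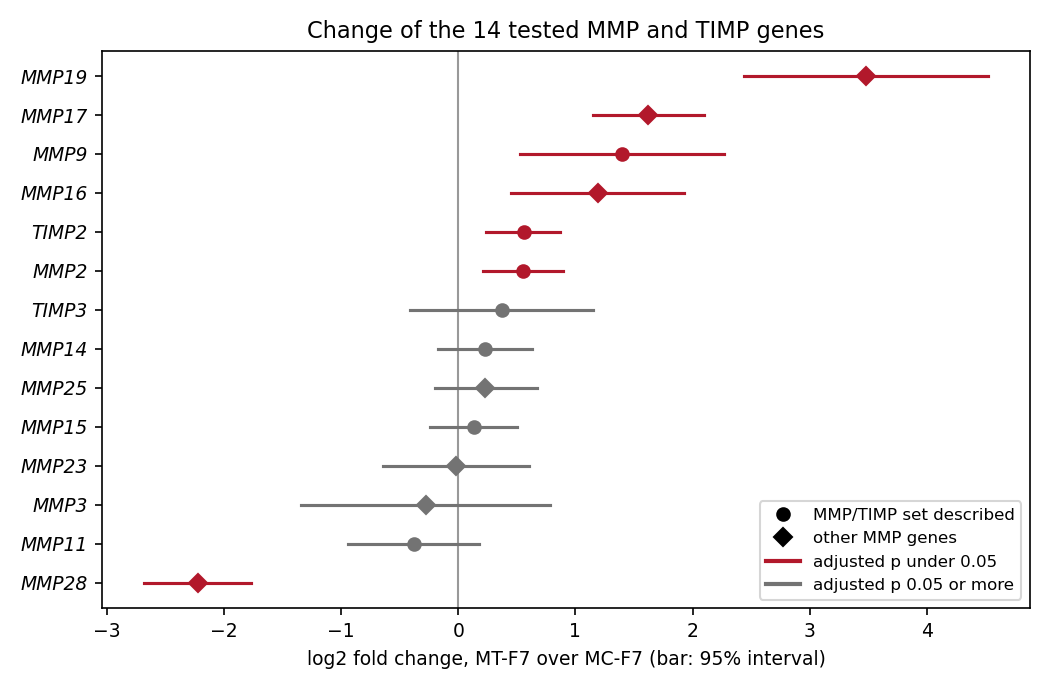
Log2 fold change of MT-F7 over MC-F7 (horizontal axis) with its 95% interval for the 14 tested MMP and TIMP genes, circles for the members and diamonds for other MMP genes, red where the adjusted p was under 0.05. MMP19 with 3.48 and MMP28 with -2.22 lie at the ends, and MMP2 and TIMP2 lie side by side at 0.55 and 0.56.

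Genes that activate, hold back or clear MMPs were called at a share near that of all tested genes. Of 11 tested, 2 were called, both higher in MT-F7 (18.2%, beside 23.2% of all tested genes), and the median log2 fold change was 0.02. The groups stood apart in 4 of the 11 with MT-F7 above and in 2 with MT-F7 below. Over all tested genes these shares were 19.9% and 20.1%. LRP1, an endocytic receptor that takes up MMP2, MMP9 and their inhibitors, rose from 60.7 ± 16.2 to 107 ± 28.4 CPM (log2 fold change 0.81, SE 0.226, adjusted p = 0.020). PCSK7, a proprotein convertase, rose from 45.3 ± 2.57 to 64.3 ± 12.6 CPM (0.51, SE 0.166, adjusted p = 0.043). The calls of both were among the less firm, since LRP1 was called in 3 and PCSK7 in 2 of the 6 fits that left out 1 library, with adjusted p values up to 0.065 and 0.17. FURIN, the convertase that activates MMP11 and the membrane-type MMPs, was at 38.7 ± 2.36 and 30.4 ± 4.3 CPM (-0.35, adjusted p = 0.13). It was not called, but all its MT-F7 libraries were below its MC-F7 libraries. BSG, or EMMPRIN, which induces MMPs in neighbouring cells, was the most abundant of the list at 768 ± 83.8 and 688 ± 56.7 CPM (-0.16, adjusted p = 0.52). RECK, a membrane-anchored inhibitor of MMP2, MMP9 and MMP14, was at 5.56 ± 1.52 and 5.11 ± 0.604 CPM (-0.12, adjusted p = 0.76).

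The plasminogen system supplies plasmin, which can activate MMP precursors. Of its 10 genes 7 were tested and 4 called (57.1%, beside 23.2% of all tested genes), 3 of them higher and 1 lower in MT-F7, and the median log2 fold change was 0.58. PLAT, the tissue-type activator, rose from 41.8 ± 7.54 to 99.6 ± 3.42 CPM (log2 fold change 1.25, SE 0.164, adjusted p = 1.5e-04). PLAUR, the receptor of the urokinase-type activator, fell from 7.25 ± 0.0879 to 3.69 ± 0.629 CPM (-0.97, adjusted p = 0.0062). ANXA2, a plasminogen receptor subunit, rose from 170 ± 28.6 to 253 ± 50.3 CPM (0.58, adjusted p = 0.037), but was called in only 2 of the 6 fits that left out 1 library, with an adjusted p of up to 0.18. Plasminogen itself (PLG) had 0, 4 and 1 counts in MC-F7 against 0, 0 and 0 in MT-F7.

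ADAM and ADAMTS proteases share the metalloprotease fold, and several are inhibited by TIMP3. Of 26 tested genes 9 were called, 7 higher and 2 lower in MT-F7 (34.6%, beside 23.2% of all tested genes), with a median log2 fold change of 0.06. ADAMTS9 rose from 4, 25 and 10 counts to 88, 136 and 82 counts (log2 fold change 2.84, adjusted p = 8.0e-04). ADAMTS6 rose from 2.81 ± 0.219 to 16.2 ± 2.73 CPM (2.53, adjusted p = 4.2e-06). ADAMTS8 fell from 3.14 ± 0.205 to 0.9 ± 0.0927 CPM (-1.80, adjusted p = 0.0011), and ADAMTS19 fell from 3.02 ± 1.24 to 1.1 ± 0.197 CPM (-1.45, adjusted p = 0.015). ADAMTS19 was not called without MC-F7 replicate 2 or without MT-F7 replicate 2, with an adjusted p of 0.080 and 0.054. ADAM17, the sheddase blocked by TIMP3, was at 5.94 ± 0.45 and 6.78 ± 1.11 CPM (0.19, adjusted p = 0.55), and ADAM10 at 56.8 ± 8.73 and 78.8 ± 10.1 CPM (0.47, adjusted p = 0.057).

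Among matrix proteins that MMPs cut, 10 of 17 tested genes were called, all higher in MT-F7 (58.8%, beside 11.9% of all tested genes in this direction), and the median log2 fold change was 0.82. The study singled out genes of this kind on these same samples, so the list is not independent evidence of a direction. NID2, a linker of basement membranes, rose from 5.88 ± 0.805 to 22.1 ± 5.5 CPM (1.91, adjusted p = 4.5e-05). COL3A1, a fibrillar collagen, rose from 14.6 ± 1.99 to 45.8 ± 10.3 CPM (1.65, adjusted p = 8.1e-05). The collagen IV chains COL4A6 and COL4A5, substrates of MMP2 and MMP9, rose by 1.62 and 1.53 on the log2 scale (adjusted p = 0.0017 and 5.6e-05). FN1, fibronectin, rose from 91.3 ± 7.89 to 180 ± 20.9 CPM (0.98, adjusted p = 6.0e-04).

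AP-1 and ETS transcription factors are known regulators of several MMP promoters. Of 14 tested, 5 were called (35.7%, beside 23.2% of all tested genes), 2 higher and 3 lower in MT-F7, and the median log2 fold change was 0.00. FOS rose from 15.3 ± 4.17 to 81.2 ± 17.2 CPM (2.41, adjusted p = 1.0e-05), and JUNB rose from 13.1 ± 0.949 to 23.3 ± 4.42 CPM (0.83, adjusted p = 0.0052). ETS2 and ETV4 fell, each with a log2 fold change of -0.79 (adjusted p = 0.0030 and 0.011), and ETV4 was not called without MT-F7 replicate 2 (adjusted p = 0.058). SPI1 is given above.

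Fibroblasts are a rich source of MMP2 and TIMP2, and the feeders were fibroblasts. Of 16 fibroblast markers 14 were tested, and 5 were called higher and 1 lower in MT-F7 (42.9%, beside 23.2% of all tested genes). Their summed level was 349 to 452 CPM in MC-F7 and 722 to 824 CPM in MT-F7. Most of this sum came from COL1A1 and FBLN1, so it does not stand for the markers as a class. FBLN1, an extracellular glycoprotein, rose from 108 ± 21 to 327 ± 37.5 CPM (1.60, adjusted p = 4.5e-05), and COL5A2 had a log2 fold change of 1.32 (adjusted p = 4.7e-04). COL3A1, given above, is also in this list, as are COL1A1, COL1A2 and DCN of the matrix list. TWIST2, a transcription factor of dermal fibroblasts, fell from 1.81 ± 0.312 to 0.406 ± 0.291 CPM (-2.15, adjusted p = 0.011). PDGFRB, a growth factor receptor of mesenchymal cells, rose from 6.5 ± 2.19 to 12.3 ± 2.3 CPM (0.93, adjusted p = 0.017), and POSTN, periostin, rose from 3.3 ± 1.24 to 7.81 ± 2.47 CPM (1.24, adjusted p = 0.013). COL1A1, the main chain of collagen I, was at 205 ± 31.4 and 268 ± 15.6 CPM (0.39, adjusted p = 0.094). COL1A2 was at 16.9 ± 4.53 and 17.4 ± 2.14 CPM (0.04, adjusted p = 0.91), and LUM at 6.43 ± 3.28 and 8.09 ± 2.43 CPM (0.33, adjusted p = 0.55). THY1 and COL6A3 were not called, with log2 fold changes of -0.32 and -0.37. PRRX1 was lower in every MT-F7 library, at 0.67 ± 0.244 and 0.215 ± 0.0498 CPM (-1.61, adjusted p = 0.054). DCN, at 1.87 ± 0.321 and 2.4 ± 1.05 CPM, and PDGFRA, at 1.01 ± 0.491 and 1.18 ± 0.0876 CPM, were low in both groups. FAP had 0, 9 and 7 counts in MC-F7 against 0, 0 and 0 in MT-F7, and DPT had at most 1 count in any library. The part of fibroblast RNA, of bovine or mouse origin, in the levels of MMP2 and TIMP2 was not tested. In bulk RNA fewer cells of a type and less RNA per cell cannot be told apart.

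Other cell type markers also moved with the groups. As in the other lists, the share of all tested genes called was 23.2%, with 11.9% higher and 11.3% lower. Of 6 tested neural progenitor markers 4 were called (66.7%), all higher in MT-F7, and their sum was 578 to 660 CPM in MC-F7 and 1075 to 1109 CPM in MT-F7. RAX, PAX6, SIX3 and FABP7 had log2 fold changes of 2.98, 2.92, 1.73 and 0.84. Of 5 tested trophectoderm markers 3 were called (60%), all lower, and the sum fell from a range of 763 to 1119 CPM to one of 187 to 212 CPM, mostly through the keratins KRT18 (-2.15) and KRT7 (-3.34), which other epithelia express too. The defining marker CDX2 had 0 counts in all libraries. Of 8 endoderm markers only FOXA2 (-3.26) and APOA1 (1.11) could be tested and both were called, while GATA4 and AFP were at 0 in all libraries. The epithelial cadherin CDH1 fell by 1.92 on the log2 scale, NANOG by 2.02, CRIPTO by 2.65 and ZFP42 by 2.73, and the sum of the pluripotent cell markers was 1387 to 2194 CPM in MC-F7 and 725 to 812 CPM in MT-F7. Whether any of these cell states carries the change in MMP2, MMP9 or TIMP2 was not tested.

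Whether the 3 members were called depended on which library was left out. With MT-F7 replicate 1 left out none of the 3 was called by edgeR, although all kept log2 fold changes of 0.47, 1.44 and 0.56 for MMP2, MMP9 and TIMP2 (adjusted p = 0.11, 0.052 and 0.053). With MC-F7 replicate 2 left out only MMP9 was called. Without MT-F7 replicate 3 all 3 were called, and in each of the other 3 such fits 2 were. Over all genes, 2155 were called without MT-F7 replicate 1 and 1914 without MC-F7 replicate 2, against 3016 with all libraries. The other fits that left out 1 library called 2235 to 3093. The plot of fold changes by way of testing shows that no setting brought any of the 3 to 0.

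**Figure D5:**
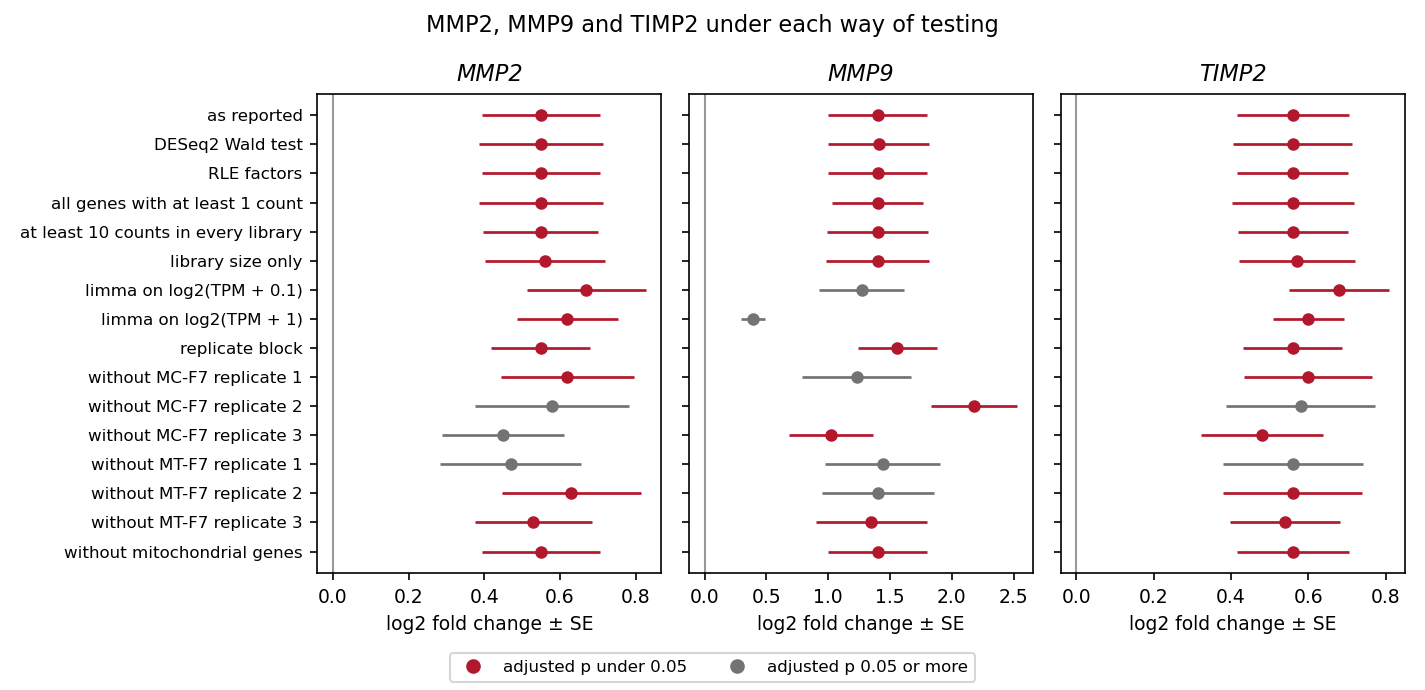
Log2 fold change ± SE (horizontal axes) of MMP2, MMP9 and TIMP2 as reported and under each of 15 alternatives, red where the adjusted p was under 0.05 and grey where it was not. All points lie above 0, and all 3 genes are grey without MT-F7 replicate 1.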

How the data were processed

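RNA-seq of 3 MC-F7 and 3 MT-F7 libraries was used. According to the labels and the study's methods, the authors aligned reads with HISAT2 2.0.5 to an Ensembl Bos taurus genome, whose build is not given in the sources used here, and counted them with featureCounts 1.5.0-p3. They deposited raw counts by Entrez identifier for 19163 genes, and a second table that the authors call TPM. In that table each library adds up to between 154763 and 164394 over 21357 genes, so library size is still in its values, and the lengths behind them were not checked. Entrez identifiers were paired with symbols through the RefSeq gene table of ARS-UCD2.0, which gave a symbol to 19074 genes.

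Genes were filtered with filterByExpr (minimum count 10, minimum total 15) and TMM factors (0.971 to 1.04) were computed in edgeR 4.0.16 under R 4.3.3. The quasi-likelihood test, two-sided, set MT-F7 against MC-F7, with Benjamini-Hochberg adjustment over the 13001 tested genes and a threshold of 0.05 on the adjusted p. Standard errors were taken from the fold change and the test statistic, and 95% intervals from the t distribution of the fit. CPM are counts per 1000000 after TMM. Levels of different genes were compared only in the second table. Ratios within a library were compared by an exact permutation test (scipy 1.17.1). In simulated data with 200 changed genes among 13002 tested, the quasi-likelihood test of MT-F7 against MC-F7 recovered 86% of genes changed by a log2 fold change of 1 and 100% of those changed by 2, and 5.58% of its calls were unchanged genes. The simulation gave every gene the same dispersion, and it changed only well counted genes and far fewer than were called here. These rates therefore do not measure the power or error for changes as small as those of MMP2 and TIMP2. Within a group, counts of any 2 libraries differed by 25 to 124 times the sampling noise (chi-square per degree of freedom), so none was counted as a copy.

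Other runs used RLE factors, raw library sizes, DESeq2 1.42.0 (Wald test), other filters on low counts, the replicate number as a block, 5 of the 6 libraries at a time, no mitochondrial genes, limma 3.58.1 on log2(TPM + 1) and log2(TPM + 0.1), and the second table rescaled to 1000000 per library. The members and lists were chosen with earlier results of these data known. All members are named. From each other list, up to 4 called genes averaging 1 CPM or more and with the largest changes are named, and for each called member the 2 genes with the nearest profile among those averaging 10 CPM or more. A few genes that this rule names are not reported here. Any other gene named was chosen after its values were seen.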

Additional observations from a re-analysis of the deposited data

How the results depend on the processing

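The 7 tested members were recomputed under 15 alternatives each. Of these 105 values, 94 kept their direction and their side of the threshold, 10 kept the direction but missed the threshold, and 1 reversed, which was MMP15 without MT-F7 replicate 3 (-0.08, the others that left out 1 library reaching 0.25). The number of members called, all higher in MT-F7, was 3 in the reported fit, 2 with limma on either scale of the second table, where MMP9 was missed (adjusted p = 0.057 with 0.1 added and 0.068 with 1 added), 0 to 3 in the fits that left out 1 library, and 3 under every other alternative. The number of all genes called, 3016, was 1914 to 3093 in the fits that left out 1 library (1019 to 1592 of them higher and 895 to 1567 lower), and was lowest without MC-F7 replicate 2.

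With the replicate block 4674 genes were called, 2373 higher and 2301 lower, and the members called were the same 3. For MMP2, MMP9 and TIMP2 the adjusted p of this fit was 0.0020, 4.3e-04 and 0.0014. Same-numbered libraries deviated together with a correlation of 0.167, 0.0707 and 0.505 across genes for replicates 1, 2 and 3. The value for replicate 3 was the highest of all pairs across the groups, and whether these libraries shared a factor was not tested. Labels do not say that the numbers pair the samples, and they were not taken to do so. MC-F7 replicate 1 correlated more with MT-F7 replicate 2 (0.368) than with its own number. With limma, 883 genes with 0.1 added and 723 with 1 added were called lower, against 1463, and the cause was not tested. Rescaling each library of the second table to 1000000 left the per-length ratio of MT-F7 to MC-F7 at 1.54 for MMP2, 2.76 for MMP9 and 1.55 for TIMP2, against 1.59, 2.83 and 1.6. TIMP4 was too low in counts to be tested, and TIMP1 was not analysed here.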

Other observations

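MC-F7 replicate 3 had the lowest CPM of its group in 7 of the 8 members, MMP11 being the exception, and in 6 of the 7 tested ones. Over all tested genes the same library was the lowest of its group in 40.6% and the highest in 38%. It also had the largest mitochondrial share, 28.3% of counts. When this library was left out, the log2 fold changes of MMP2, MMP9 and TIMP2 were 0.45, 1.02 and 0.48, and MMP9 and TIMP2 were still called.

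In a search of the 7811 genes that averaged 10 CPM or more, those whose profile over the 6 libraries was nearest to that of each called member were looked up by the root mean square difference of log2 CPM centred on the gene's own mean. For TIMP2 INPP5A was among them, with a difference of 0.0478. For MMP2 they were IL27RA (0.0647) and TNNC1 (0.0696). For MMP9 they were TSC22D3 (0.323) and LTBP1 (0.347), the latter a matrix protein that binds latent TGF-beta and rose from 10.8 ± 2.7 to 31.8 ± 0.123 CPM. These are descriptions over 6 libraries in 2 groups.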
